A study of Rattus norvegicus with 6 samples.

Results

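The genes described here are the nuclear genes for the proteins of the mitochondrial ribosome, chosen as every gene of the deposited table whose symbol begins with Mrpl, for the large subunit, or Mrps, for the small subunit, followed by a digit. They are 80 of the 23091 genes of that table, 51 for the large subunit and 29 for the small. The mitochondrial ribosome makes the few proteins encoded by mitochondrial DNA, all of them core parts of the respiratory chain and the ATP synthase. Its RNAs come from mitochondrial DNA, whereas each of its proteins is encoded in the nucleus, made in the cytosol and imported. Some of these proteins have counterparts in bacterial ribosomes and others are found in mitochondria alone. Neurons depend heavily on oxidative phosphorylation, and the mass of mitochondria is known to grow during neuronal differentiation.

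The 6 samples are rat mesenchymal stem cells, which are stromal cells that grow attached to plastic, from marrow, labelled MSCs and wild type (WT). The 3 samples named CYSP had received CYSP, a treatment that the labels do not spell out, and the 3 samples named CK had received the solvent DMSO. Both groups had been kept in neural differentiation medium for 7 days, so no sample shows the cells before that medium. The series asks how gene expression differs when CYSP drives these cells toward neurons. Whether samples of 1 group came from different cultures or animals is not stated, so the p-values rest on a spread between samples that may be technical only.

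Libraries held between 15060933 and 17244700 counts. Mitochondrially encoded genes took 10.9 to 11.1% of the counts in CYSP and 4.96 to 5.06% in CK. All 10 stromal markers examined were detected, 5 higher and 5 lower in CYSP, with a summed level of 18568 ± 604 CPM in CYSP and 70790 ± 1283 CPM in CK (CPM, counts scaled to the library size and by the TMM method that allows for differences in RNA composition; mean ± SD, n = 3 each). Most of that sum was Col1a1 (mean 9668 CPM in CYSP, 40665 in CK) and Col1a2 (5322 in CYSP, 25781 in CK). Itgb1, Vcam1 and Pdgfrb were also lower in CYSP, whereas Cd44, Thy1, Nt5e, Eng and Pdgfra were higher. Of 12 macrophage and leukocyte markers 9 were lower in CYSP and none was higher, and their sum was 534 ± 3.68 CPM in CYSP (range 531 to 538) against 1826 ± 114 CPM in CK (range 1715 to 1942). None of these markers was at 0, and their part in the differences given below was not tested. In bulk RNA, fewer cells of a type and less RNA per cell cannot be told apart. Of 8 neuron markers 3 passed the filter, of which Snap25 and Tubb3 were higher and Map2 was lower. Snap25 had 770, 698 and 768 counts in CYSP and 0, 0 and 1 in CK, while Rbfox3 had no count in any sample.

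The mRNAs of the mitochondrial ribosome differed little between CYSP and CK, and in both directions. Of the 80 genes, 7 are further identifiers of large-subunit symbols (Mrpl13, Mrpl30, Mrpl40, Mrpl46, Mrpl48 and, with 2 such identifiers, Mrpl42) and had no count in any sample. The other 73, with 20 to 1300 counts per sample and a median of 228, passed the filter on low counts and were tested. At a threshold of 0.05 in edgeR's quasi-likelihood test, Benjamini-Hochberg adjusted over 12623 genes, 13 of the 44 tested large-subunit genes were higher in CYSP and 9 were lower. Of the 29 small-subunit genes 14 were higher and 2 were lower. Together 38 of 73 members (52.1%) were called, whereas 76.1% of all genes tested were called, 38.2% higher and 37.8% lower. Among the 9008 tested genes within the members' own range of mean CPM the share called was 73.3%. The median log2 fold change of CYSP over CK was -0.03 in the large subunit, 0.21 in the small subunit and 0.00 over all genes tested.

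Differences were small as well as fewer. The median absolute log2 fold change was 0.22 in the large subunit and 0.30 in the small, against 0.53 over all genes tested and 0.50 over those in the members' range of CPM. Of the 73 members 10 (13.7%) differed by 1.5-fold or more, against 46.6% of all genes tested. Mrpl33 was the one member (1.37%) past a 2-fold difference, against 27.9% of all genes tested. Members spanned log2 fold changes of -0.64 (Mrpl19) to 1.05 (Mrpl33). In 40 of the 73 members the values of the CYSP and CK samples did not overlap, whereas this held for 77.0% of all genes tested.

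**Figure D1:**
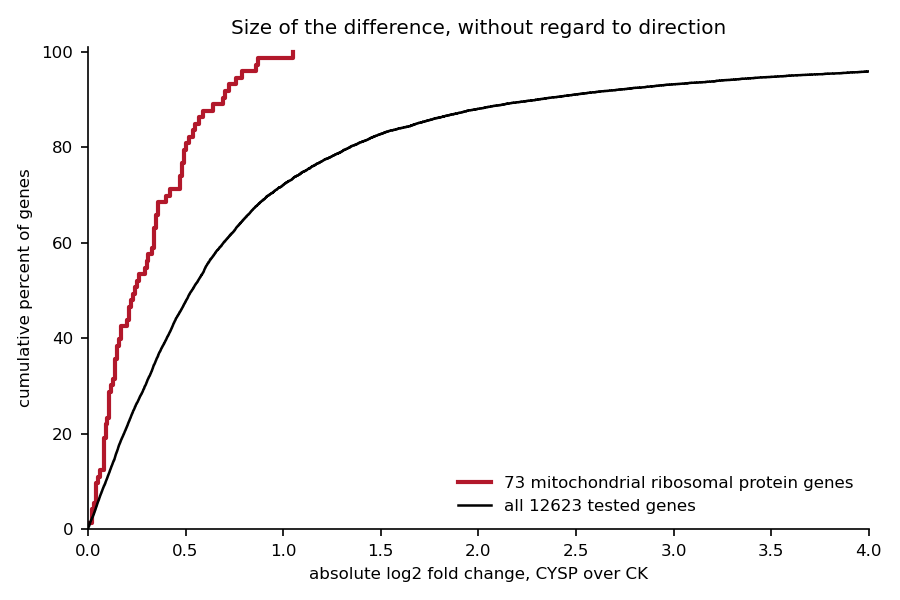
Cumulative percent of genes (vertical axis) by absolute log2 fold change of CYSP over CK (horizontal axis, drawn up to 4) for the 73 tested mitochondrial ribosomal protein genes and for all 12623 genes tested. The line of the members climbs faster and ends at 1.05, and the medians are 0.24 for the members and 0.53 for all genes.

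When the test asked for a difference beyond 1.2-fold (edgeR's glmTreat, same adjustment), 8 large-subunit genes were higher and 4 lower, and 6 small-subunit genes were higher and 2 lower. These 20 members are 27.4% of those tested, against 59.0% of all genes. With an assumed coefficient of variation of 0.2 between samples, a value far above the 0.0393 estimated here, 10 members (13.7%) were called, against 46.8% of all genes. They were Mrpl28, Mrpl33, Mrpl45, Mrps9, Mrps10, Mrps12, Mrps17 and Mrps33, all higher in CYSP, and Mrpl19 and Mrps15, both lower.

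The split between directions depends on how libraries are scaled. With each library scaled by its total count alone, 10 large-subunit genes were higher and 14 lower, and 11 small-subunit genes were higher and 4 lower. The share of member calls that were higher was then 53.8%, against 71.1% with TMM scaling. Over all genes tested, 45.1% of calls were higher with library totals and 50.3% with TMM. The calls of Mrpl4, Mrpl36, Mrpl44, Mrps26, Mrps30 and Mrps34 as higher were lost, and Mrpl2, Mrpl12, Mrpl20, Mrpl21, Mrpl37, Mrps2 and Mrps27 were added as lower. That scaling set the median log2 fold change of all genes at -0.078, against 0.005 with TMM. In the authors' deposited table, whose fold changes are ratios of FPKM (fragments per kilobase of transcript, scaled for depth), 15 large-subunit members had an adjusted p under 0.05, 6 of them with a positive fold change, and 8 small-subunit members did, 5 of them with a positive fold change. Of these 23 members 22 were also called here.

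**Figure D2:**
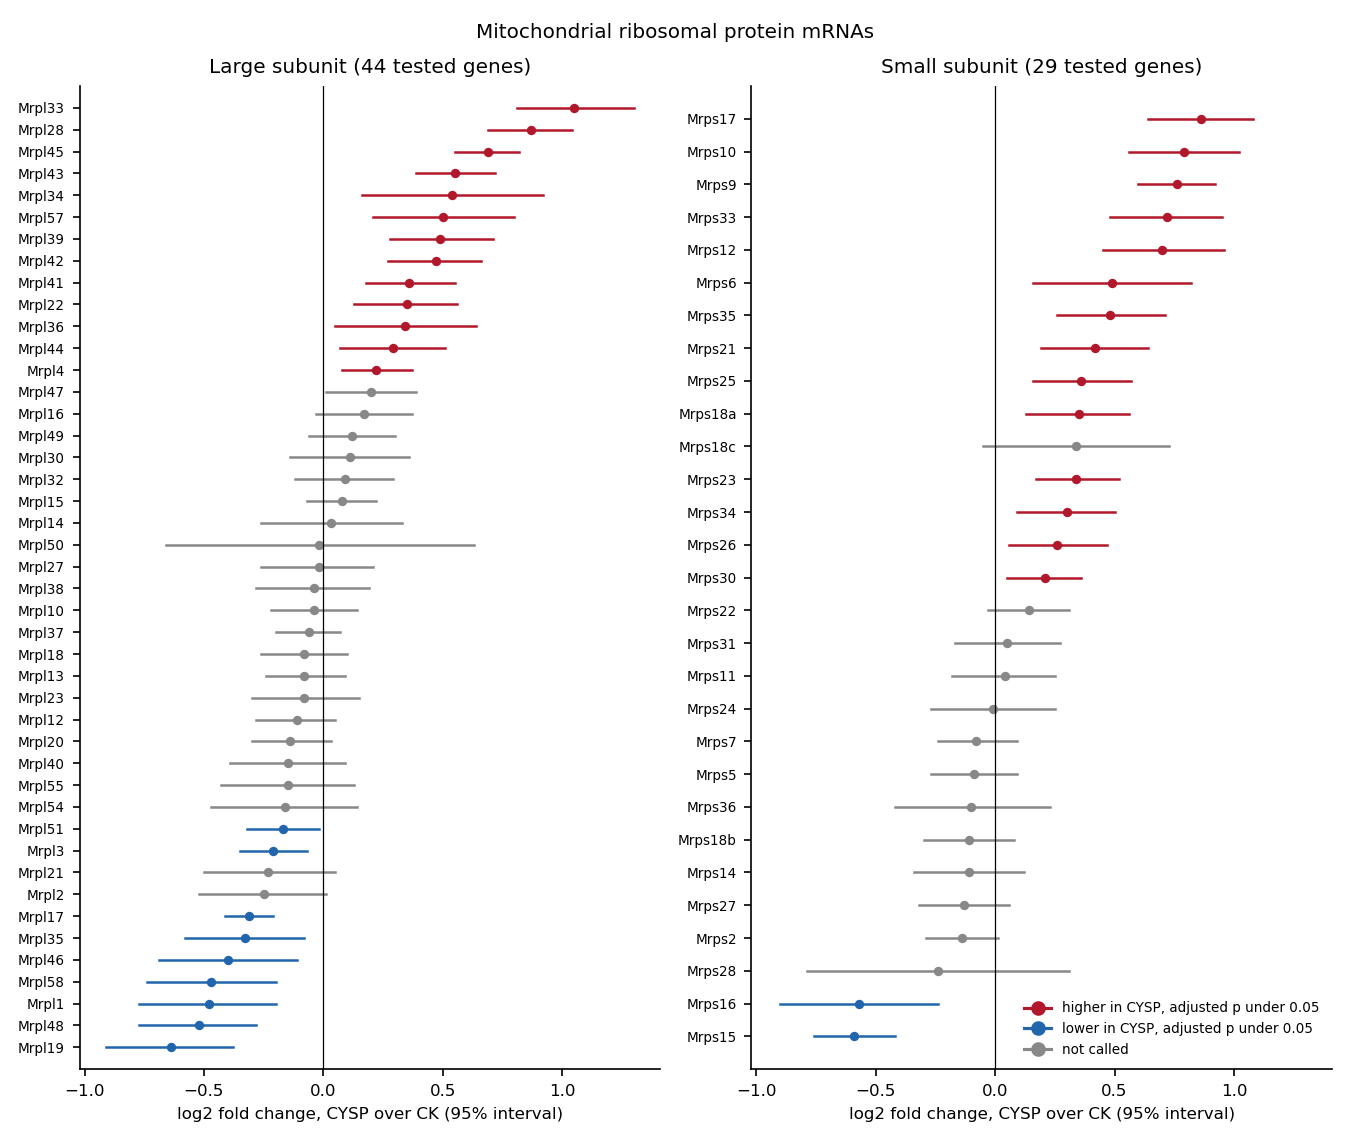
Log2 fold change of CYSP over CK (horizontal axis) for each tested gene of the large subunit (left, 44 genes) and small subunit (right, 29 genes), with 95% intervals from the standard error, coloured by call. Large-subunit genes run from -0.64 (Mrpl19) to 1.05 (Mrpl33) with 13 higher and 9 lower, and small-subunit genes from -0.59 (Mrps15) to 0.86 (Mrps17) with 14 higher and 2 lower.

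Mrpl33 (ENSRNOG00000025388), a small protein of the large subunit with a bacterial counterpart, showed the largest difference of all members. It had 15.5, 16.2 and 13.6 CPM in CYSP, against 7.90, 6.47 and 7.43 CPM in CK. Every CYSP sample was above every CK sample, and the log2 fold change was 1.05 ± 0.125 (SE; edgeR's quasi-likelihood test, Benjamini-Hochberg adjusted p = 7.18e-12). Mrpl28, also with a bacterial counterpart, had 27.3, 28.3 and 28.6 CPM in CYSP and 15.9, 14.4 and 15.9 CPM in CK. These groups did not overlap either (log2 fold change 0.87 ± 0.0904, edgeR adjusted p = 4.52e-14). Mrpl45 lies at the exit of the peptide tunnel, where in mammals it ties the ribosome to the inner membrane. It had 46.9, 43.6 and 46.2 CPM in CYSP and 27.0, 29.0 and 28.9 CPM in CK, again without overlap (log2 fold change 0.69 ± 0.0692, edgeR adjusted p = 9.92e-15).

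Next in size were Mrpl43 at a log2 fold change of 0.55, Mrpl34 at 0.54 and Mrpl57 at 0.50. In Mrpl34, the highest CK sample (5.15 CPM) came close to the lowest CYSP sample (5.20 CPM), and the call was lost without CK replicate 1 or without CK replicate 3. Mrpl22, Mrpl39, Mrpl41 and Mrpl42 were also higher, with log2 fold changes of 0.35 to 0.49 and no overlap between groups. Mrpl4 was higher by 0.22 on the log2 scale. Mrpl44, whose product has the fold of an RNA-cutting enzyme and is mutated in human mitochondrial disease, was higher by 0.29 with overlapping groups, and so was Mrpl36 by 0.34. Without CYSP replicate 2 or CK replicate 2 neither of these last calls remained, and Mrpl36 was also lost without CYSP replicate 3 or CK replicate 1.

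The lower members of the large subunit were led by Mrpl19 (ENSRNOG00000006968), which has a bacterial counterpart. Mrpl19 had 6.80, 6.96 and 6.96 CPM in CYSP, against 10.4, 11.2 and 10.7 CPM in CK. The CYSP samples were all below the CK samples (log2 fold change -0.64 ± 0.136, edgeR's quasi-likelihood test, Benjamini-Hochberg adjusted p = 1.94e-05). Mrpl48, a protein particular to mitochondria, had 10.2, 10.6 and 7.37 CPM in CYSP and 13.7, 14.1 and 12.9 CPM in CK. CYSP replicate 3 was the lowest there, and the groups did not overlap (log2 fold change -0.52 ± 0.124, edgeR adjusted p = 0.000127). Mrpl1, the protein of the stalk through which spent tRNA leaves, had 6.68, 5.47 and 8.74 CPM in CYSP and 10.0, 9.67 and 9.42 CPM in CK. Its CYSP samples were spread more widely than its CK samples and stayed below them (log2 fold change -0.48 ± 0.145, edgeR adjusted p = 0.00222). Mrpl58, a ribosomal protein that keeps a peptide-releasing activity and can rescue stalled ribosomes, had 8.38, 7.57 and 6.49 CPM in CYSP and 9.42, 11.8 and 9.96 CPM in CK. These groups did not overlap (log2 fold change -0.47 ± 0.138, edgeR adjusted p = 0.00178).

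Mrpl17 is the member with the highest level per length, and its smaller difference was among the most precise. It had 56.7, 60.3 and 58.2 CPM in CYSP and 73.3, 71.0 and 72.8 CPM in CK, with all CYSP samples below the CK samples (log2 fold change -0.31 ± 0.0530, edgeR's quasi-likelihood test, Benjamini-Hochberg adjusted p = 2.78e-07). Mrpl35 (-0.33), Mrpl46 (-0.40), Mrpl51 (-0.17) and Mrpl3 (-0.21, each a log2 fold change) were also lower. Each of these calls was lost when 1 sample was left out, namely CYSP replicate 1 or CK replicate 3 for Mrpl35, CYSP replicate 2 or CK replicate 1 for Mrpl46, CYSP replicate 3 for Mrpl3, and CYSP replicate 2, CYSP replicate 3 or CK replicate 3 for Mrpl51. Mrpl3, which lies near the site of peptide bond formation, had overlapping groups, and so had Mrpl46.

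In the small subunit Mrps17, Mrps10, Mrps9, Mrps33 and Mrps12 were higher by 0.70 to 0.86 on the log2 scale, and no CYSP sample overlapped a CK sample in any of them. Mrps17 (ENSRNOG00000000926), an RNA-binding protein with a bacterial counterpart, had 16.8, 21.1 and 18.5 CPM in CYSP, against 10.4, 9.80 and 10.7 CPM in CK. CYSP replicate 2 was the highest sample and the CK samples lay within 1 CPM of each other (log2 fold change 0.86 ± 0.110, edgeR's quasi-likelihood test, Benjamini-Hochberg adjusted p = 8.13e-11). Mrps10 had 17.1, 15.1 and 15.2 CPM in CYSP and 9.25, 7.98 and 10.1 CPM in CK, and Mrps9 had 37.4, 31.7 and 35.7 CPM in CYSP and 20.5, 21.9 and 19.7 CPM in CK. Both products belong to the head of the small subunit and have bacterial counterparts, and both mRNAs separated the groups (Mrps10 log2 fold change 0.79 ± 0.118, edgeR adjusted p = 8.41e-09, and Mrps9 0.76 ± 0.0809, edgeR adjusted p = 1.22e-13).

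Mrps12, the protein of the decoding centre, had 14.9, 11.8 and 13.0 CPM in CYSP and 8.24, 8.92 and 7.25 CPM in CK. All CYSP samples were above all CK samples (log2 fold change 0.70 ± 0.128, edgeR's quasi-likelihood test, Benjamini-Hochberg adjusted p = 1e-06). Mrps33, which has no bacterial counterpart, had 14.3, 16.7 and 13.5 CPM in CYSP and 9.65, 8.67 and 8.64 CPM in CK, likewise without overlap (log2 fold change 0.72 ± 0.120, edgeR adjusted p = 1.66e-07). Mrps6, Mrps35, Mrps21, Mrps25, Mrps23, Mrps34 and Mrps26 followed, with log2 fold changes of 0.26 to 0.49. Among these, Mrps34 is needed in mouse and human for a stable small subunit and was higher by 0.30 ± 0.105, a call lost with scaling by library totals. The call of Mrps26 was lost without CYSP replicate 1 or without CK replicate 1.

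Mrps15 (ENSRNOG00000008279) and Mrps16, both with bacterial counterparts, were the lower members of the small subunit. Mrps15 had 19.7, 18.9 and 20.7 CPM in CYSP, against 30.3, 32.7 and 26.1 CPM in CK. The groups were well apart, with CK replicate 3 the lowest of its group (log2 fold change -0.59 ± 0.0864, edgeR's quasi-likelihood test, Benjamini-Hochberg adjusted p = 6.2e-09). Mrps16 had 3.64, 5.54 and 6.21 CPM in CYSP and 8.29, 6.72 and 7.67 CPM in CK (log2 fold change -0.57 ± 0.168, edgeR adjusted p = 0.00179). Its lowest value was CYSP replicate 1, and without that sample the call was lost, so that Mrps15 alone was called lower.

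**Figure D3:**
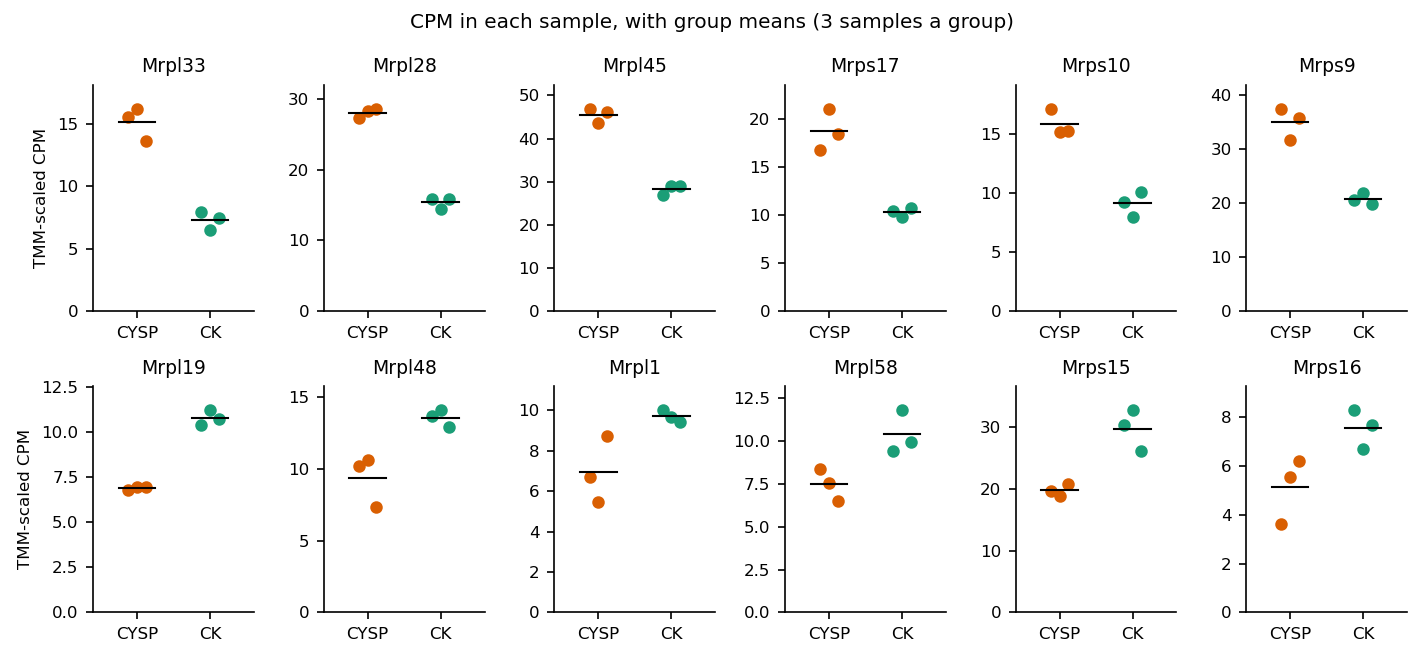
TMM-scaled CPM (vertical axes, each from 0) of 12 members in the 3 CYSP samples (left of each panel) and the 3 CK samples (right), with bars at the group means. The upper row shows the 3 most increased genes of each subunit and the lower row the decreased Mrpl19, Mrpl48, Mrpl1, Mrpl58, Mrps15 and Mrps16, and the groups do not overlap in any panel.

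For 32 of the 35 members that were not called, the 95% interval of the difference lay within a 1.5-fold change in either direction. Mrpl12, the flexible stalk protein that recruits translation factors, had 24.4, 24.9 and 21.4 CPM in CYSP and 25.1, 25.4 and 26.1 CPM in CK. Its CYSP samples lay just below its CK samples, and the interval of the log2 fold change was -0.28 to 0.05 (edgeR's quasi-likelihood test, Benjamini-Hochberg adjusted p = 0.211). For Mrpl10, the base of that stalk, the interval was -0.22 to 0.14. For Mrps2 it was -0.29 to 0.01 and for Mrps22, a protein found in mitochondria alone, -0.03 to 0.31. Variants of the human genes of both are known in mitochondrial disease. Mrpl2, Mrpl13, Mrpl14, Mrpl15, Mrpl16, Mrpl18, Mrpl20, Mrpl21, Mrpl23, Mrpl27, Mrpl30, Mrpl32, Mrpl37, Mrpl38, Mrpl40, Mrpl47, Mrpl49, Mrpl54 and Mrpl55 had log2 fold changes of -0.25 to 0.20, and Mrps5, Mrps7, Mrps11, Mrps14, Mrps18b, Mrps24, Mrps27 and Mrps31 of -0.13 to 0.05. The intervals were wider for the genes with the fewest counts, -0.66 to 0.63 for Mrpl50, -0.79 to 0.31 for Mrps28 and -0.05 to 0.73 for Mrps18c.

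Mrpl47 differed most between units. On counts its log2 fold change was 0.20 (edgeR's quasi-likelihood test, Benjamini-Hochberg adjusted p = 0.0573), with 19.9, 17.9 and 19.0 CPM in CYSP and 15.5, 17.8 and 16.2 CPM in CK. In the authors' deposited table its log2 fold change of mean FPKM was -0.27. Counts and FPKM imply a transcript length 1.306 times as long in CYSP as in CK for this gene, the widest departure of any member. Mrpl14, Mrpl15, Mrpl30, Mrps11 and Mrps31, none of them called, had positive log2 fold changes on counts, of 0.03 to 0.11. In the authors' deposited table theirs were negative, of -0.12 to -0.03. The implied lengths of these genes in CYSP were 1.013, 1.078, 1.043, 1.000 and 0.998 times those in CK, in that order.

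Symbols do not always match position. In mammalian structures the products of Mrps18a and Mrps30 sit in the large subunit, and both mRNAs were higher in CYSP, by 0.35 ± 0.110 and 0.21 ± 0.0789 on the log2 scale. The call of Mrps30 was lost without CYSP replicate 2 or without CK replicate 3. Mrps36 is now known as a part of the 2-oxoglutarate dehydrogenase complex of the citric acid cycle and was not called, with an interval of -0.42 to 0.23. Without these genes, the proteins of the small subunit with bacterial counterparts held 6 higher and 2 lower of 16, and those particular to mitochondria 6 higher and none lower of 10, with 4 not called. In the large subunit the counts were 6 higher and 5 lower of 27 with bacterial counterparts, and 7 higher and 4 lower of 17 particular to mitochondria. The shares called in these 4 classes, 40.7 to 64.7%, were all under the 76.1% of all genes tested. Of the ribosomal proteins with other gene names, Ptcd3 was higher by 0.24 ± 0.0675, whereas Aurkaip1 (-0.34 ± 0.0495) and Chchd1 (-0.48 ± 0.127) were lower. All 3 belong to the small subunit. Dap3, also of the small subunit, and Gadd45gip1, of the large, were not called, with intervals of -0.12 to 0.17 and -0.22 to 0.26.

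Summed over all Mrps symbols, the mRNAs reached 478, 473 and 474 CPM in CYSP and 423, 422 and 419 CPM in CK, 1.128 times as much in CYSP. The Mrpl symbols reached 790, 786 and 782 CPM in CYSP and 738, 765 and 760 CPM in CK, a ratio of 1.042. Neither sum overlapped between groups on this scale. Mrps18a, Mrps30 and Mrps36 are in the Mrps sum, and the 5 ribosomal protein genes with other names are in neither. Those 5 genes summed to 171 ± 5.51 CPM in CYSP and 185 ± 2.37 CPM in CK. Mrps18a and Mrps30 together reached 45.3 ± 3.07 CPM in CYSP and 38.0 ± 0.589 CPM in CK. Sums by position in the ribosome were not made on any scale, so these ratios compare symbols and not positions. Scaled by the library total alone, the sum of the Mrps symbols was higher in every CYSP sample, at 461 ± 0.45 CPM in CYSP and 433 ± 1.89 CPM in CK. That of the Mrpl symbols was 763 ± 3.11 CPM in CYSP and 776 ± 15.1 CPM in CK, with overlapping groups (mean ± SD throughout, n = 3 each). With the mitochondrially encoded genes left out of the library total, the Mrpl symbols summed to 858 ± 2.74 CPM in CYSP and 817 ± 16.3 CPM in CK. The Mrps symbols then summed to 519 ± 1.18 CPM in CYSP and 456 ± 2.04 CPM in CK.

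Levels per transcript length, given as mean FPKM over the 6 samples, ran from 1.69 (Mrpl50) to 66.4 (Mrpl17) in the large subunit and from 2.96 (Mrps28) to 19.9 (Mrps7) in the small. The proteins themselves are, with the exception of the Mrpl12 stalk, built into the ribosome in single copies. After Mrpl17 the highest levels of the large subunit were those of Mrpl15 (35.4 FPKM) and Mrpl20 (32.3 FPKM), and the second lowest was Mrpl57 (2.45 FPKM). In the small subunit Mrps9 (19.7 FPKM) and Mrps30 (19.3 FPKM) followed Mrps7, and Mrps16 (4.29 FPKM) was second lowest. The order of the members was much the same in both groups, with a Spearman correlation of mean FPKM in CYSP with mean FPKM in CK of 0.915 across the 44 large-subunit genes and 0.843 across the 29 small-subunit genes. This is across genes, which share libraries and annotated lengths and are not independent replicates.

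**Figure D4:**
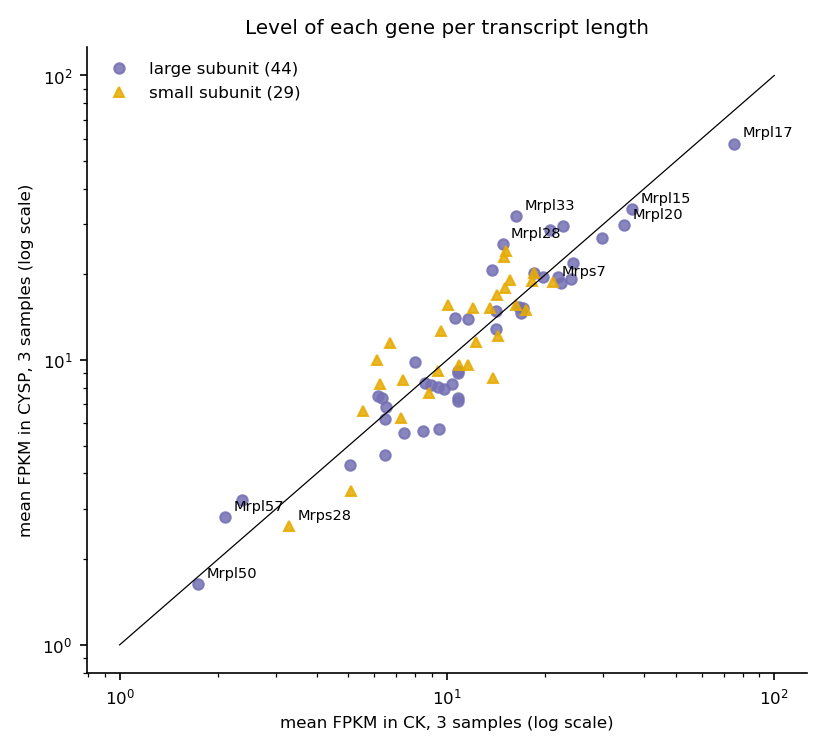
Mean FPKM in CYSP (vertical axis, log scale) against mean FPKM in CK (horizontal axis, log scale) for 44 large-subunit and 29 small-subunit genes, with the line of equal levels. The points run along the line from Mrpl50 to Mrpl17, and Mrpl33 (32.1 in CYSP, 16.3 in CK) lies farthest above it.

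The mRNAs that this ribosome translates moved much more. All 13 mitochondrially encoded mRNAs were higher in CYSP, with log2 fold changes of 0.73 (Mt-nd3) to 1.59 (Mt-nd1) and a median of 1.35. Mt-nd1, a membrane subunit of respiratory complex I, had 4595, 4584 and 4624 CPM in CYSP and 1530, 1543 and 1509 CPM in CK. Nuclear genes picked by symbols of the respiratory chain and ATP synthase were higher in 52 and lower in 5 of 88 tested, with a median of 0.24. That pattern of symbols also fits assembly factors (Ndufaf), and the log2 fold changes ran from -5.86 to 5.18. Cytosolic ribosomal protein genes were picked as symbols of Rpl or Rps and a digit, and 84 were higher and 6 lower of 104 tested. Their median was 0.53. That pattern also fits the symbols of kinases (Rps6k) and leaves out the Rplp symbols, and some symbols may be processed copies that share reads. Beside these lists, the mitochondrial ribosome had 27 higher and 11 lower of 73 and a median of 0.04. The difference between the lists was not tested.

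**Figure D5:**
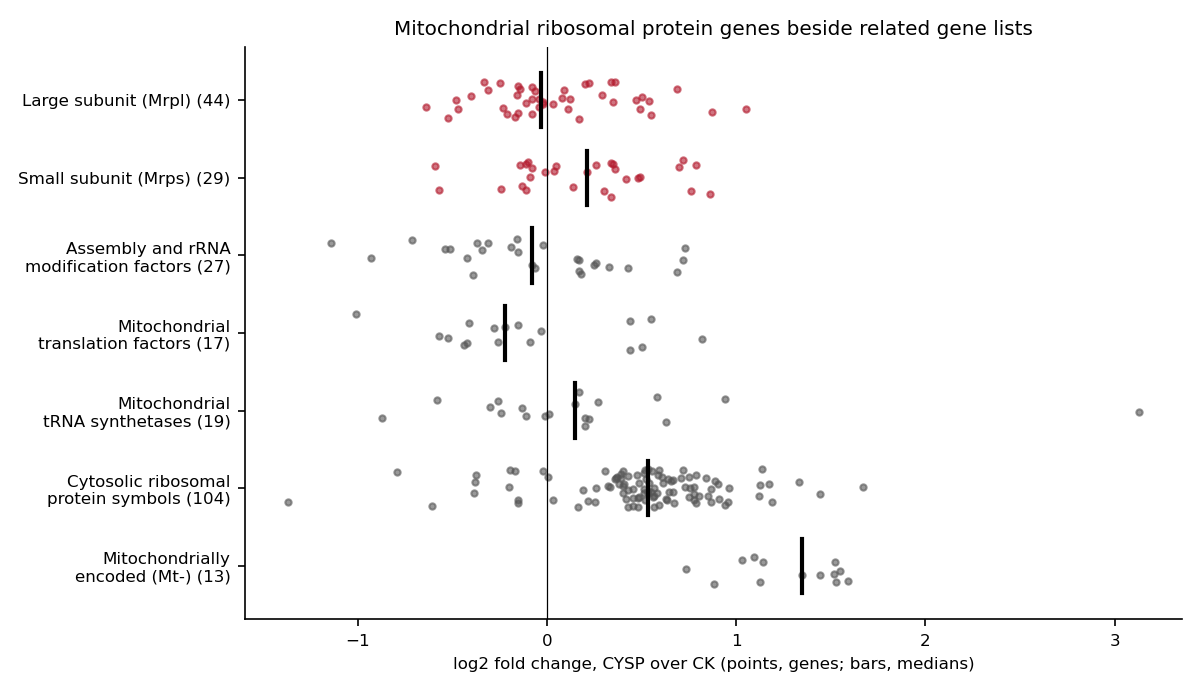
Log2 fold change of CYSP over CK (horizontal axis) of each tested gene (points) in 7 lists, with a bar at each median and the number of genes in brackets. The medians are -0.03 for the large subunit, 0.21 for the small subunit, 0.53 for cytosolic ribosomal protein symbols and 1.35 for the mitochondrially encoded genes.

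Genes that build and serve the mitochondrial ribosome were also mixed. The share called was 48.1% of assembly and rRNA modification factors, 64.7% of translation factors, 42.1% of tRNA synthetase genes and 73.3% of transcription genes and regulators, against 76.1% of all genes tested. Of 27 assembly and rRNA modification factors 5 were higher and 8 lower. C1qbp, a matrix protein needed for mitochondrial translation in mouse, had 169, 150 and 163 CPM in CYSP and 98.5, 96.7 and 97.9 CPM in CK, and was higher without overlap (log2 fold change 0.72 ± 0.0426). Mpv17l2, an inner membrane protein of ribosome assembly, was higher by 0.73 ± 0.161. Of the enzymes that methylate the ribose of the large ribosomal RNA, Mrm1 was lower at -1.14 ± 0.144, Mrm2 was higher at 0.69 ± 0.225 and Mrm3 was not called, with an interval of -0.78 to 0.04. Rcc1l, an assembly factor, was lower at -0.93 ± 0.126, and Nsun4, which methylates the small ribosomal RNA, at -0.71 ± 0.128.

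Of 17 translation factors 5 were higher and 6 lower. Gfm2, which recycles ribosomes after termination, was higher by 0.82 ± 0.0830, and Tufm, the elongation factor that brings tRNA, by 0.55 ± 0.0590. Mtif3, an initiation factor, was lower at -0.57 ± 0.119, and Mtrfr, a factor of ribosome rescue like Mrpl58, at -1.01 ± 0.182. Of 19 genes for mitochondrial aminoacyl-tRNA synthetases and the amidotransferase that completes glutaminyl-tRNA, 5 were higher and 3 lower. The amidotransferase subunits differed in direction, with Gatb higher by 0.94 ± 0.130 and Qrsl1 lower at -0.58 ± 0.207. Sars2, for serine, was lower at -0.87 ± 0.221 and Pars2, for proline, higher by 0.63 ± 0.173.

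Among 15 genes for mitochondrial transcription and its nuclear regulators 5 were higher and 6 lower. Ppargc1a, the coactivator known for driving mitochondrial gene programmes, had 83, 104 and 89 counts in CYSP and 2, 2 and 1 in CK, a ratio of the scaled sums of 60.4 with a 95% Clopper-Pearson counting interval of 25.6 to 187. Esrra, a nuclear receptor that works with it, had 51.1, 48.5 and 49.2 CPM in CYSP and 10.7, 13.3 and 11.5 CPM in CK (log2 fold change 2.07 ± 0.0831). Of the other listed regulators of nuclear genes for mitochondria, Gabpa was lower at -1.05 ± 0.0856, Nrf1 at -0.49 ± 0.0939, Myc at -0.86 ± 0.0570 and the coactivator Pprc1 at -1.31 ± 0.0652. Gabpb1, the partner of Gabpa, and Ppargc1b, a relative of Ppargc1a, were not called, with intervals of -0.21 to 0.10 and -1.04 to 0.84. Tfam, which packs and transcribes mitochondrial DNA, was higher by 0.25 ± 0.0895, and Lrpprc, which stabilises mitochondrial mRNAs, by 0.62 ± 0.0483.

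Promoters are shown because some of these regulators, namely Gabpa, Nrf1 and Myc, bind short motifs near the starts of nuclear genes for mitochondria. A motif of YY1, which is not among the listed regulators, was searched for as well, and none of Esrra was. Windows of 300 bases, 250 before and 50 after the gene start, were found by symbol for 56 of the 73 tested members in the RefSeq set for build GRCr8. The motif of the ETS family, to which Gabpa belongs (CCGGAAG), stood on either strand in 18 of these 56 windows (32.1%) and in 9.22% of all 27457 windows of that length. It stood in 7 of 22 members called higher (31.8%), 3 of 9 called lower (33.3%) and 8 of 25 not called (32.0%). The motif of Nrf1 (GCGCANGCG) stood in 17.9% of member windows and 6.26% of all windows, with 6 of 22 members called higher, 1 of 9 called lower and 3 of 25 not called. The motif of YY1 (AAGATGG) stood in 26.8% of member windows and 7.3% of all, and the E-box bound by Myc (CACGTG) in 10.7% and 6.65%. Of the 57 matches none overlapped a match of another motif. Member windows had a median of 55.8% G and C against 51.7% in all windows, and the part of this in the shares was not tested. The set of all windows is not limited to genes tested here, and shares among tested genes were not computed. A match describes the letters and is not a binding site.

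The windows below belong to members that were called higher or lower, and capitals mark the ETS, Nrf1 and YY1 motifs. Mrpl33 (chr6:30553938-30554237, minus strand) and Mrps10 (chr9:21122404-21122703, minus strand) were higher and Mrpl58 (chr10:101145092-101145391, plus strand) was lower, and each holds the ETS motif close to its start. Mrpl45 (chr10:82804789-82805088, plus strand) was higher and holds the Nrf1 motif at 2 places. Mrpl46 (chr1:142116981-142117280, minus strand) was lower and holds the YY1 motif.
Mrpl33: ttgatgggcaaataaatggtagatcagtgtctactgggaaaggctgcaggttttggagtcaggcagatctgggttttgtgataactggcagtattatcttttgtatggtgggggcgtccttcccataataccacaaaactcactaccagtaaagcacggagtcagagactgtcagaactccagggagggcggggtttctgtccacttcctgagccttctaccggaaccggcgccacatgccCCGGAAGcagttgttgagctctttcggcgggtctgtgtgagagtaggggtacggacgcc
Mrps10: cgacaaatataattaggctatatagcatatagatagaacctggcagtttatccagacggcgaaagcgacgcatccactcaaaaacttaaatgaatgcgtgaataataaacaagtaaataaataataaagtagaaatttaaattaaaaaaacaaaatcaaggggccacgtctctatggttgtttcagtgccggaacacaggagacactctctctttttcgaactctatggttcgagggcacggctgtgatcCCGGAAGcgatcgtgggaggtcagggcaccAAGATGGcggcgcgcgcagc
Mrpl58: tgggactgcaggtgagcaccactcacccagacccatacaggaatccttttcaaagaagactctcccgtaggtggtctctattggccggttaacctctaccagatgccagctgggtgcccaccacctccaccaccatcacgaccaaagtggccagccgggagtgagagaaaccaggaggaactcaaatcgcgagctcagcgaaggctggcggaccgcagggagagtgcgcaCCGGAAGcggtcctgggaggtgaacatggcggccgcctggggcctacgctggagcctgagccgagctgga
Mrpl45: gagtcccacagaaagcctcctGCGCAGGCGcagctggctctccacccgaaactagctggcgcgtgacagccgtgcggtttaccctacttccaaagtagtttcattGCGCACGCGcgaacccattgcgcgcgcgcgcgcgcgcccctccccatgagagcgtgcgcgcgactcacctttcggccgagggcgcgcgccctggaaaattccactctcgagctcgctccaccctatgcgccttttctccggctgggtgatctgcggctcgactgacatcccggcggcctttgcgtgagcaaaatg
Mrpl46: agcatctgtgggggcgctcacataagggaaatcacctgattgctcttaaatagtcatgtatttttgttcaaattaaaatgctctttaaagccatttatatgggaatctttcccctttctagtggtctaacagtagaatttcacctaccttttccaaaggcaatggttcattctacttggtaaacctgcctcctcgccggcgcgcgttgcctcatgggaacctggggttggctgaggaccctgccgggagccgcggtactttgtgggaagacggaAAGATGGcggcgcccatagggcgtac

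The window of Mrpl46 is shown because it also holds the start of Mrps11 on the other strand, so that a gene of each subunit begins from 1 stretch of DNA, with the starts 234 bases apart. Mrpl46 had 7.23, 6.28 and 6.55 CPM in CYSP and 10.2, 6.91 and 9.36 CPM in CK. CK replicate 2 lay below CYSP replicate 1, and the log2 fold change was -0.40 ± 0.150 (edgeR's quasi-likelihood test, Benjamini-Hochberg adjusted p = 0.0134). Mrps11 had 15.4, 12.9 and 13.9 CPM in CYSP and 13.1, 14.3 and 13.8 CPM in CK, with overlapping groups and an interval of -0.18 to 0.25. In all, 18 members have a gene that starts within 1000 bases on the other strand, and 16 of these neighbours were tested. The neighbour was called in 9 of these 16 cases, against 76.1% of all genes tested, and in 2 of them the member was called as well. The Pearson correlation of the log2 fold changes over the 16 pairs was 0.25, with Mrpl46 and Mrps11 counted from both sides. Mrpl41 and Pnpla7, a lysophospholipase, were both higher, at 0.36 and 1.10 on the log2 scale, and Mrpl51 and Ncapd2, a condensin subunit, were both lower, at -0.17 and -0.98. The sources do not say whether reads were counted by strand, and reads of overlapping genes may therefore be shared.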

How the data were processed

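Polyadenylated RNA of 3 CYSP and 3 CK samples was sequenced after Trizol extraction, per the labels' protocols. The submitters' processing notes name fastp 0.18.0, HISAT2, StringTie 1.3.1 and RSEM without a role. The sources used here give no genome build, annotation or counting tool. The deposited table gives read counts per gene and sample, which may be rounded RSEM estimates, per the file headers. The deposited table further holds FPKM for each sample and group means of FPKM. The authors took the log2 fold change from those group means and deposited a p-value, raw and adjusted, of a test that is not stated.

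Samples were grouped by title. The counts of 12623 genes that passed filterByExpr were fitted with edgeR 4.0.16 in R 4.3.3 (TMM scaling, robust quasi-likelihood test, Benjamini-Hochberg threshold 0.05). CPM are TMM-scaled. Intervals are the log2 fold change ± 1.96 SE and are not adjusted for the number of genes. Counting intervals cover counting error only, and at these depths 3 counts are 0.174 to 0.199 CPM. Pairs of samples within a group differed by 2.10 to 2.79 times the chi-square expected from sampling noise, so all were kept apart. The labels do not say that replicate numbers pair samples, and the main fit did not pair them.

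The members, gene lists and motifs were chosen with earlier results of these data known. Per subunit, the text names the 6 called genes with the largest differences in each direction without overlap, the 3 highest and 2 lowest by FPKM, all genes not called and a fixed set of well-studied genes. Mrpl9, Mrpl11, Mrpl24, Mrpl52 and Mrpl53 are not analysed here. Nor are 2 genes of the related mitochondrial lists, and a further gene of these is not reported here. Alternatives were other scalings, DESeq2 1.42.0, limma 3.58.1 (voom, and trend on log2 FPKM), other filters, a left-out sample, a replicate block, glmTreat, a minimum fold, an assumed spread, counts summed by symbol and, chosen after seeing the data, a fit without mitochondrially encoded genes. On counts simulated for this comparison, over 12623 genes of which few were changed, edgeR recovered 38% of 1.2-fold, 82% of 1.5-fold and 88% of 2-fold changes.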

Additional observations from a re-analysis of the deposited data

How the results depend on the processing

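The counts of called members and the medians moved with the scaling and with the call rule. With the library total alone, 14 large-subunit genes were lower and the median log2 fold changes were -0.117 (large) and 0.122 (small), and 4 small-subunit genes were lower. Limma with trend on log2(FPKM + 1) and on log2(FPKM + 0.1) called 16 large-subunit and 4 small-subunit genes lower in both cases, with medians of -0.118 and -0.126 (large) and 0.122 and 0.128 (small). Mrpl47 turned round there, at -0.247 with a pseudocount of 1 and -0.269 with 0.1. Stricter rules lowered most of the counts. A tested fold of 1.2 left 8 higher and 4 lower in the large subunit and 6 higher in the small, where the 2 lower genes stayed. The assumed coefficient of variation of 0.2 left 3 higher and 1 lower (large) and 5 higher and 1 lower (small). A log2 fold change of at least 1 left 1 higher and 0 lower (large) and 0 of either direction (small), where Mrpl33 was the gene kept. Leaving out 1 sample gave 11 to 13 higher and 7 to 9 lower in the large subunit, and 13 to 15 higher and 1 to 3 lower in the small, with medians of -0.036 to 0.003 and 0.175 to 0.239. The 1 lower small-subunit gene was found without CYSP replicate 1, and the 3 without CYSP replicate 2 or CK replicate 3. Of the 38 called members 28 kept the call without each sample in turn, and 10 lost it without at least 1.

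The replicate block gave 13 higher and 9 lower (large) and 14 higher and 2 lower (small), so it changed no call. Deviations of same-numbered samples from their group means correlated at -0.009 to 0.019. So low a correlation does not show whether those samples shared a culture or batch, which is not stated. DESeq2 size factors, upper-quartile scaling and no filter changed no member's call, and the DESeq2 Wald test lost Mrpl36 and Mrpl51. Limma-voom, summing by symbol and the fit without mitochondrially encoded genes each added Mrpl47 as higher. The fit with the stricter filter added Mrpl47 and lost Mrpl51. Depth limits the members with few counts, since at the median of 228 counts the counting error is 6.62%, against an estimated spread between samples of 3.93%.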
